A study of Mus musculus with 12 samples.

Results

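The enzymes that carry squalene to cholesterol were examined in bone marrow-derived macrophages (BMDMs) with and without AMPKβ1, the regulatory subunit of AMP-activated protein kinase that PF-06409577 (PF) binds. The group is a list of gene names: Fdft1, Sqle, Lss, Cyp51, Msmo1, Nsdhl, Hsd17b7, Sc5d and Dhcr7, 9 genes of the 12960 with counts. All 9 passed the filter on low counts that left 10822 genes for testing. WT mice and mice of the whole-body AMPKβ1-/- line gave the marrow, which was cultured with L929 medium as the source of M-CSF. BMDMs of each genotype then received vehicle (0.1% DMSO) or 10 µM PF for 6 h, and each of the 4 groups had 3 RNA sequencing libraries. The age and sex of the mice, the number of mice behind a group and the DMSO content of the PF wells were not given in the sources used here. Since nothing says that the 3 libraries of a group came from separate mice, the p values measure the spread between these libraries, which may be technical.

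Cholesterol is built from farnesyl diphosphate through squalene and lanosterol, in steps that take place mostly in the membrane of the endoplasmic reticulum. Fdft1 (squalene synthase) makes squalene, Sqle (squalene epoxidase) adds the first oxygen and is a point of flux control, and Lss closes the rings to give lanosterol. The products of Cyp51, Msmo1, Nsdhl and Hsd17b7 act in turn to strip methyl groups from lanosterol, Sc5d introduces a double bond into the sterol ring, and Dhcr7 reduces the last intermediate to cholesterol. Genes of this pathway are known targets of SREBP2, a transcription factor that is released from the endoplasmic reticulum when sterols there are low, and macrophages use the pathway beside uptake of lipoproteins to set their sterol content. The counts measure RNA alone, so enzyme activity and sterol synthesis are not seen in them.

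The libraries held 8935609 to 14358180 counts, and the members took 0.0342% to 0.0616% of them. Prkab1, the gene of AMPKβ1, checked the labels. It had 406, 479 and 455 counts in WT with vehicle, 489, 399 and 490 in WT with PF, 92, 118 and 57 in AMPKβ1-/- with vehicle and 108, 120 and 85 in AMPKβ1-/- with PF, so that every AMPKβ1-/- library was below every WT library (log2 fold change −2.57 with vehicle, edgeR adjusted p = 8.85e-09). All 8 macrophage markers were found, with summed levels of 25191 to 29681 CPM (counts scaled with TMM factors to a library total of 1e6) in every library, while lymphoid and mast cell markers were not listed and those of granulocytes (4 of 7 listed), dendritic cells (3 of 4) and fibroblasts (5 of 5) summed to at most 0.958, 1.28 and 8.66 CPM. The highest fibroblast sum was in 1 AMPKβ1-/- vehicle library. In WT BMDMs, 3 of the 8 macrophage markers fell with PF, against 969 of the 10822 tested genes. Between the genotypes with vehicle, edgeR called 2 of the 8 higher and 4 lower in AMPKβ1-/- BMDMs. Over all 10822 tested genes, 3216 were higher and 3249 lower. With PF, 2 markers were higher and 2 lower, against 2613 and 2481 of all tested genes. The even sum thus hides differences of single markers, and the part of cell content in the members' values was not tested. In bulk RNA, fewer cells of a type and less RNA per cell cannot be told apart.

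The genomic positions of the members are those of GENCODE M21 on GRCm38. Fdft1 lies at chr14:63145150-63179578, Sqle at chr15:59315077-59331192, Lss at chr10:76531588-76557138, Cyp51 at chr5:4081145-4104746 and Msmo1 at chr8:64718139-64733792. Nsdhl lies at chrX:72918557-72958514, Hsd17b7 at chr1:169949535-169969241, Sc5d at chr9:42251595-42264256 and Dhcr7 at chr7:143823145-143848410. All 9 are protein-coding and no pair of them shares a chromosome.

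Promoter windows of RefSeq (GRCm38.p6), from 250 bases before a gene's start to 50 after it, were at hand for 7 members in 9 windows, 3 of them for Dhcr7. The windows of Cyp51, Msmo1 and Hsd17b7 are shown because these were the 3 members whose response to PF differed between the genotypes in edgeR's test, as given further on. They are written 5′ to 3′ on the gene's strand, and capitals mark the NF-Y box (CCAAT, or ATTGG on the other strand) and the octamer TCACCTCA.
Cyp51 (chr5:4104648-4104947, minus strand): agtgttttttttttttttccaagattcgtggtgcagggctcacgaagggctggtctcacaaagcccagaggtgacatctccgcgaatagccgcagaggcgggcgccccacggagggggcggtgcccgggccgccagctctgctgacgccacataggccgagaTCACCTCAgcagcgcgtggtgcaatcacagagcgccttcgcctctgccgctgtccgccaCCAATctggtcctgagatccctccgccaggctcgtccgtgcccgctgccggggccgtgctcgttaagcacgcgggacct
Msmo1 (chr8:64733529-64733828, minus strand): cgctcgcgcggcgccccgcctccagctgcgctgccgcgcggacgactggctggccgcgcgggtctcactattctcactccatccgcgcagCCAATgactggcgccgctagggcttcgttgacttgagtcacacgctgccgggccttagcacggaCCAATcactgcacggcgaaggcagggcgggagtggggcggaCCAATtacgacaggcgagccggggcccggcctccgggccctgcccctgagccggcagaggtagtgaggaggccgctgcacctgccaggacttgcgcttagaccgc
Hsd17b7 (chr1:169969156-169969455, minus strand): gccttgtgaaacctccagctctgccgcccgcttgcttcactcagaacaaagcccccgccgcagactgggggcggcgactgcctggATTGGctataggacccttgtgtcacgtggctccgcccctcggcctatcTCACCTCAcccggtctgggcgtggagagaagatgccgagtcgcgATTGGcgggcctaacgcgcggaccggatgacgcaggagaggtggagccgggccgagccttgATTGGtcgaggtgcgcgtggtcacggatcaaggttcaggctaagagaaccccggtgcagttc

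CCAAT, the letters bound by NF-Y, stood on either strand in 7 of the 9 windows, at least 1 for each of the 7 members, against 37.4% of the 32851 promoter windows in the table. GGGCGG, the Sp1 box, was in 8 of the 9 windows, again with at least 1 for each member, against 35.7% of all windows. The Msmo1 window held CCAAT 3 times, with its first base at −160, −96 and −55 from the gene's start. In the Hsd17b7 window the box was read on the other strand, at −165, −73 and −12, and Cyp51 had it once, at −29. The E-box CACGTG was in 3 of the 9 windows, 1 each of Dhcr7, Hsd17b7 and Sc5d, against 7.15% of all windows. The letters TCACNCCAC and the shorter CACNCCAC, which were searched as sterol response elements, were in 0 of the 9 windows, against 1.24% and 6.24% of all windows, and TCACNCCAC always contains CACNCCAC. Elements written with other letters would be missed by these patterns, so their absence from the windows was not shown. TCACCTCA was searched after these windows had been read and was found in 2 of the 9 windows, those of Cyp51 (−88) and Hsd17b7 (−117), against 1.17% of all windows. A match is a run of letters and not a bound site, and factor binding was not measured.

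**Figure D1:**
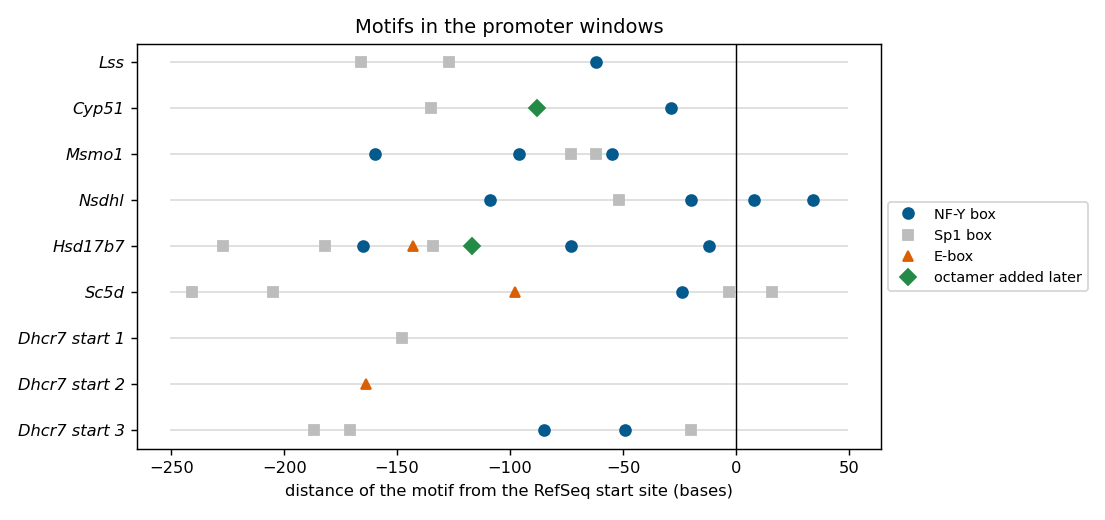
Positions of motifs in the 9 promoter windows of 7 members, as distance in bases from the RefSeq start site (line at 0), with a symbol for each motif, with both strands pooled. Every member has an NF-Y box (circles) and an Sp1 box (squares) in at least 1 window, while the octamer added later (diamonds) is seen in Cyp51 and Hsd17b7.

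To order the members by level, CPM were divided by the length of the longest transcript in kb. In WT BMDMs with vehicle Msmo1 was highest, at 32.9 ± 2.75 CPM per kb (SD, n = 3), followed by Sqle at 24.2 ± 2.82. Dhcr7 (17.6 ± 0.909) and Fdft1 (16.9 ± 1.16) came next with libraries that overlapped, as did those of Cyp51 (14.4 ± 0.798) and Nsdhl (14.3 ± 1.21). Lss stood at 10.1 ± 1.19, Sc5d at 4.47 ± 0.376 and Hsd17b7 at 1.62 ± 0.169 CPM per kb, and these 3 did not overlap with each other or with those above. With PF in WT BMDMs Msmo1 (56.8 ± 5.73 CPM per kb) and Sqle (35.0 ± 1.02) kept the top ranks and Cyp51 moved past Fdft1 and Dhcr7 to the third, at 24.6 ± 1.76. In AMPKβ1-/- BMDMs the order was Msmo1, Sqle, Cyp51, Nsdhl, Dhcr7, Fdft1, Lss, Sc5d and Hsd17b7 with either treatment, and the libraries of Nsdhl, Dhcr7 and Fdft1 overlapped from one rank to the next, as did those of Cyp51 and Nsdhl with PF. The order depends on the length used: per kb of all exons joined, Fdft1 was first in WT with vehicle, at 14.8 CPM per kb, and Msmo1 was behind Cyp51 and Sqle, at 10.9.

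PF raised the RNA of 7 of the 9 members in WT BMDMs, where 6.99% of all tested genes were called higher at an adjusted p below 0.05. The members' median log2 fold change was 0.54, against 0.0048 over all tested genes. Summed over the 9 members, the level was 403, 413 and 414 CPM in the vehicle libraries and 575, 598 and 620 CPM in the PF libraries, so every PF library stood above every vehicle library. For 8 of the 9 members taken singly the PF libraries lay above all vehicle libraries, which held for 14.2% of all tested genes.

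At the entry to the pathway, Fdft1 had 67.2, 58.9 and 61.4 CPM with vehicle and 82.9, 82.5 and 77.9 CPM with PF in WT BMDMs. The lowest PF library was above the highest vehicle library, and Fdft1 rose 1.30-fold (log2 0.38 ± 0.083 SE, edgeR adjusted p = 0.0110). Sqle went from 64.3, 60.4 and 75.3 CPM to 93.6, 99.1 and 97.1 CPM. Its PF libraries were close together and well above the vehicle libraries, and it rose 1.45-fold (log2 0.54 ± 0.086 SE, edgeR adjusted p = 0.00193). Lss had 43.9, 44.3 and 53.7 CPM with vehicle and 72.9, 61.6 and 62.3 CPM with PF, again without overlap, a rise of 1.39-fold (log2 0.47 ± 0.097 SE, edgeR adjusted p = 0.00766).

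The enzymes that remove the methyl groups of lanosterol had log2 fold changes from 0.27 (Nsdhl) to 1.04 (Hsd17b7). Cyp51, the demethylase of the cytochrome P450 family, had 58.8, 58.3 and 53.1 CPM with vehicle and 90.2, 95.7 and 104 CPM with PF. The groups were far apart, and the 1.70-fold rise (log2 0.77 ± 0.084 SE, edgeR adjusted p = 0.000298) had the 4th smallest p of all tested genes. Msmo1, the methylsterol monooxygenase, had 66.8, 72.9 and 61.7 CPM with vehicle and 104, 118 and 127 CPM with PF, a rise of 1.73-fold (log2 0.79 ± 0.100 SE, edgeR adjusted p = 0.000588). Hsd17b7, the ketoreductase of this stage and the scarcest member, had 6.63, 7.66 and 8.16 CPM with vehicle and 13.4, 14.7 and 18.2 CPM with PF, from 62 to 236 counts in a library. Its PF libraries were all well above the vehicle libraries, and its 2.06-fold rise was the largest of the members (log2 1.04 ± 0.148 SE, edgeR adjusted p = 0.00105). Nsdhl, the decarboxylating dehydrogenase that acts between Msmo1 and Hsd17b7, had 33.9, 30.1 and 28.9 CPM with vehicle and 37.9, 34.9 and 39.3 CPM with PF. The groups did not overlap but lay close, and the difference (log2 0.27 ± 0.104 SE) did not pass the test (edgeR adjusted p = 0.0792).

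The last steps differed from each other. Sc5d had 19.4, 22.6 and 22.3 CPM with vehicle and 30.1, 40.3 and 48.5 CPM with PF. No libraries overlapped, the PF libraries were widely spread, and Sc5d rose 1.85-fold (log2 0.89 ± 0.148 SE, edgeR adjusted p = 0.00238). Dhcr7, the final reductase, had 52.6, 48.3 and 48.1 CPM with vehicle and 50.1, 51.8 and 45.6 CPM with PF. These libraries overlapped, and the log2 fold change was −0.015 (95% interval −0.20 to 0.17, edgeR adjusted p = 0.913). The study's methods ask of a differentially expressed gene (DEG) that its log2 fold change also go past 0.8. With this threshold on edgeR's values, Hsd17b7 and Sc5d were called, 2 of the 9, against 1.16% of all tested genes. Cyp51 (0.77) and Msmo1 (0.79) lay just below it. The study applied its rule to DESeq2 results, so its calls can differ from these. Fdft1 was not called without WT PF library 2 (edgeR adjusted p = 0.0507).

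**Figure D2:**
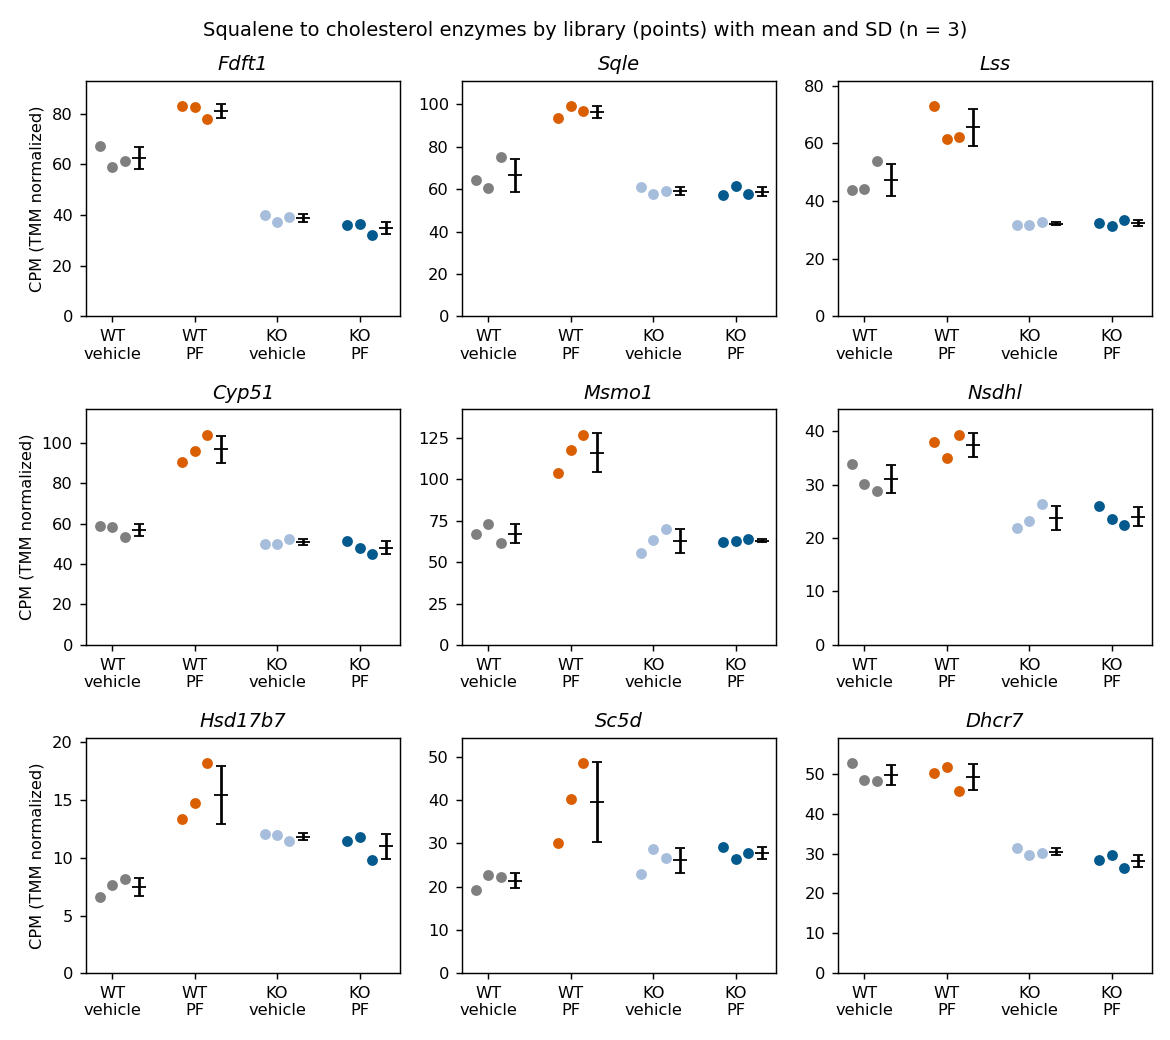
Level of each member in CPM (TMM normalized, linear axes from 0) in the 12 libraries, as points coloured by group, with the mean and SD of each group of 3 as a bar beside them. In WT BMDMs the PF libraries lie above the vehicle libraries for every member but Dhcr7, and in AMPKβ1-/- (KO) BMDMs the vehicle and PF libraries lie at about the same height.

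In AMPKβ1-/- BMDMs PF changed none of the 9 members in edgeR's test. At an adjusted p below 0.05, 0.0554% of all tested genes were called higher and 0 lower, and 0 members had an unadjusted p below 0.05, against 4.98% of all tested genes in either direction. DESeq2 and limma-voom called 0 members as well. The members' log2 fold changes lay between −0.15 (Fdft1) and 0.087 (Sc5d), with a median of −0.010. Sqle, for example, had 61.1, 57.6 and 59.1 CPM with vehicle and 57.4, 61.3 and 57.7 CPM with PF. Cyp51 had 49.7, 50.1 and 52.5 CPM with vehicle and 51.4, 47.8 and 45.2 CPM with PF, and Msmo1 had 55.5, 63.5 and 69.9 and then 62.1, 62.9 and 64.1 CPM. In each of these 3 genes the libraries of the treatments overlapped. Hsd17b7 had 12.03, 11.9 and 11.5 CPM with vehicle and 11.4, 11.8 and 9.76 CPM with PF, which overlap in part. The PF libraries of Fdft1 (36.0, 36.6 and 31.99 CPM) and Dhcr7 (28.4, 29.6 and 26.4 CPM) lay below all vehicle libraries (40.1, 37.1 and 39.1 CPM, and 31.4, 29.7 and 30.1 CPM), which held for 6.28% of all tested genes, and neither passed the test. The 95% intervals of the log2 fold changes reached no lower than −0.41 (Hsd17b7) and no higher than 0.40 (Sc5d), so changes within a member's own interval are not excluded.

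**Figure D3:**
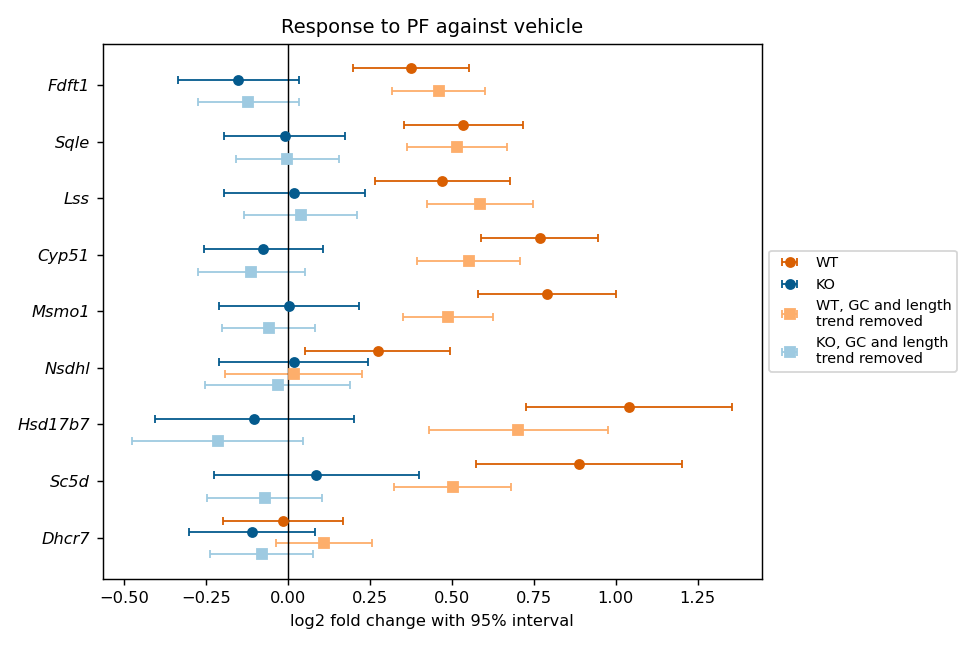
Log2 fold change of PF against vehicle with its 95% interval for each member, in WT (orange) and AMPKβ1-/- (KO, blue) BMDMs. Circles are the counts as deposited and squares the fit with the GC and length trend of each library removed. WT intervals lie right of 0 for 8 members as deposited (all but Dhcr7) and for 7 with the trend removed (all but Nsdhl and Dhcr7), and every KO interval includes 0.

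Whether the response differed between the genotypes was asked with the interaction term, the log2 fold change in WT minus that in AMPKβ1-/- BMDMs. It was above 0 for all 9 members, with a median of 0.55 against −0.0023 over all tested genes, and it passed the test for 3 of them, against 0.176% of all tested genes that were called in this direction. Of the 3, Cyp51 and Hsd17b7 were also past 0.8 on the log2 scale, against 0.0832% of all tested genes. Cyp51 had the clearest difference (log2 0.84, 95% interval 0.59 to 1.10, edgeR adjusted p = 0.00811). Msmo1 differed by 0.79 (interval 0.49 to 1.09) and Hsd17b7 by 1.14 (interval 0.71 to 1.58), each with an edgeR adjusted p of 0.0261. Fdft1 (0.53, adjusted p = 0.0702), Sqle (0.55, adjusted p = 0.0700), Sc5d (0.80, adjusted p = 0.104) and Lss (0.45, adjusted p = 0.171) rose with PF in WT, but edgeR did not show their response to differ between the genotypes. For Nsdhl (0.26, adjusted p = 0.453) and Dhcr7 (0.095, adjusted p = 0.750) neither the WT response nor the difference passed. The unadjusted p was below 0.05 for 7 of the 9 members, against 14.3% of all tested genes in either direction.

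The count of 3 moved with the setting. It was 5 when libraries were scaled by their total alone, 6 with the DESeq2 test and 7 once the trend in GC content and length was taken out. Over all tested genes, 23, 61 and 85 (0.785%) were then called in this direction, against 19 in the main fit. Leaving out 1 library at a time, Cyp51 was called each time, with an edgeR adjusted p of at most 0.0466. Msmo1 was lost in 9 of these fits (adjusted p up to 0.0991), and was called when the library left out was vehicle 2 of WT, PF 1 of WT or vehicle 1 of AMPKβ1-/-. Hsd17b7 was also lost in 9 (adjusted p up to 0.0946), and was called when it was vehicle 3 of WT, PF 1 of WT or vehicle 1 of AMPKβ1-/-. The count fell to 1 in the absence of vehicle library 1 of WT, PF library 2 or 3 of WT, vehicle library 2 or 3 of AMPKβ1-/-, or any PF library of AMPKβ1-/-. It was 2 in the absence of vehicle library 2 of WT, and rose to 6 in that of PF library 1 of WT. Over all tested genes, 10 and 133 were called in this direction in these last 2 fits.

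Without PF, the genotypes differed in both directions. Compared with WT, 4 members were lower and 1 was higher in AMPKβ1-/- BMDMs with vehicle, against 30% of all tested genes that were lower and 29.7% that were higher, so shares of this size were common in the whole table. Fdft1 had 40.1, 37.1 and 39.1 CPM in AMPKβ1-/- libraries, all below the 58.9 to 67.2 CPM of WT, and was lower by a log2 fold change of −0.69 (edgeR adjusted p = 3.95e-05). Dhcr7 was at 31.4, 29.7 and 30.1 CPM, against 48.1 to 52.6 in WT (log2 −0.71, edgeR adjusted p = 4.03e-05). Neither gene's libraries came near those of the other genotype. Lss (31.7, 31.8 and 32.7 CPM, log2 −0.56, edgeR adjusted p = 0.000312) and Nsdhl (21.9, 23.1 and 26.3 CPM, log2 −0.38, edgeR adjusted p = 0.00625) were also lower without overlap. Hsd17b7 went the other way, with 12.03, 11.9 and 11.5 CPM above the WT libraries (6.63, 7.66 and 8.16 CPM) and a log2 fold change of 0.66 (edgeR adjusted p = 0.00175). Sqle (log2 −0.17), Cyp51 (−0.16), Msmo1 (−0.094) and Sc5d (0.29) did not pass, with edgeR adjusted p of 0.103, 0.112, 0.436 and 0.112. No member was a DEG at the log2 threshold of 0.8, against 1.76% of all tested genes lower and 16.1% higher. Libraries did not overlap for 5 members that were lower, Cyp51 beside the 4 called, and for 2 that were higher, Hsd17b7 and Sc5d, against 32% and 30.9% of all tested genes. Without WT vehicle library 2, Sqle was called lower (log2 −0.24, edgeR adjusted p = 0.0380).

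With PF in both genotypes, all 9 members were lower in AMPKβ1-/- than in WT BMDMs, against 22.9% of all tested genes, and for all 9 the libraries did not overlap, which held for 30% of all tested genes. This comparison uses the same WT PF libraries as that of PF against vehicle in WT, so the values of both are set side by side and are not independent. Fdft1 was lowest relative to WT (log2 −1.22, edgeR adjusted p = 2.67e-07), after a rise of 0.38 with PF in WT. Lss (−1.01), Cyp51 (−1.01), Msmo1 (−0.88) and Dhcr7 (−0.80) were also past the log2 threshold of 0.8, which makes 5 DEGs against 2.06% of all tested genes, and of these Dhcr7 had no measured rise in WT. Sqle (−0.72), Nsdhl (−0.64), Sc5d (−0.52) and Hsd17b7 (−0.49) were lower by less, with edgeR adjusted p from 1.78e-05 for Sqle to 0.0100 for Hsd17b7. Hsd17b7, which had been higher in AMPKβ1-/- than in WT BMDMs with vehicle, was thus lower with PF, at 11.4, 11.8 and 9.76 CPM against 13.4, 14.7 and 18.2 CPM. It was not called without WT PF library 3 (edgeR adjusted p = 0.0549) or without AMPKβ1-/- PF library 3 (0.0549).

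**Figure D4:**
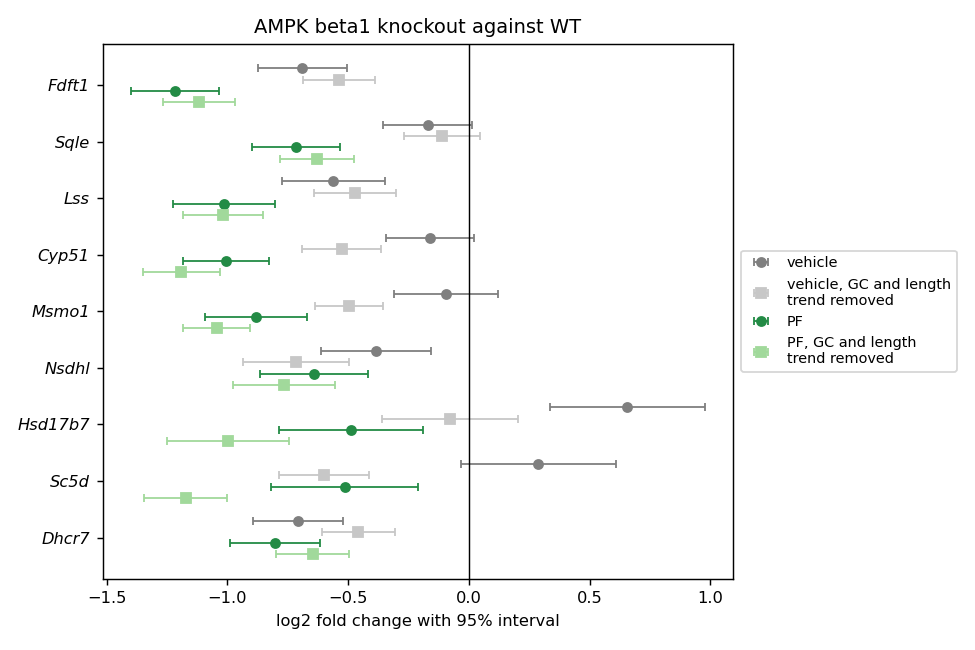
Log2 fold change of AMPKβ1-/- against WT BMDMs with its 95% interval for each member, with vehicle (grey) and with PF (green). Circles are the counts as deposited and squares the fit with the GC and length trend of each library removed. All green intervals lie left of 0. The grey circles of Hsd17b7 and Sc5d lie right of 0, that of Sc5d with an interval that includes 0. Their grey squares lie left of 0, that of Hsd17b7 with an interval that includes 0.

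The libraries differed in how counts depended on the GC content of a gene, and this moved with the groups. The slope of log2 CPM over 10 percentage points of GC, relative to the mean of all libraries, was 0.36 to 0.72 in WT with vehicle, −0.051 to 0.37 in WT with PF, −0.36 to −0.10 in AMPKβ1-/- with vehicle and −0.51 to −0.33 in AMPKβ1-/- with PF. The members' transcripts range from 42.9% GC in Sc5d and 43.9% in Hsd17b7 to 52.8% in Dhcr7, against a median of 50.1% over all genes tested. The WT PF library with the highest Sc5d level was also the one with the lowest slope in that group. When the trend in GC content and length was removed from each library, 7 members still rose with PF in WT BMDMs, against 3.28% of all tested genes. Their log2 fold changes lay closer together: 0.46 for Fdft1, 0.52 for Sqle, 0.59 for Lss, 0.55 for Cyp51, 0.49 for Msmo1, 0.70 for Hsd17b7 and 0.50 for Sc5d. Nsdhl was at 0.016 and Dhcr7 at 0.11, and neither passed. In AMPKβ1-/- BMDMs 0 members were called in this fit too, against 0.0277% of all tested genes higher and 0% lower. The interaction was then called for Fdft1, Sqle, Lss, Cyp51, Msmo1, Hsd17b7 and Sc5d, with log2 values of 0.58, 0.52, 0.55, 0.66, 0.55, 0.92 and 0.57.

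The comparison of genotypes with vehicle depended more on this trend. With it removed, 7 members were lower and 0 higher in AMPKβ1-/- BMDMs, against 20% of all tested genes lower and 14.5% higher, and the members' median went from −0.17 to −0.50. Sc5d changed sign, from 0.29 to −0.60, and was then called lower (edgeR adjusted p = 8.07e-05). Hsd17b7, called higher before, was at −0.079 (edgeR adjusted p = 0.693). Cyp51 (−0.53) and Msmo1 (−0.50) joined Fdft1, Lss, Nsdhl and Dhcr7 among the lower members, and Sqle (−0.11) did not. With PF, all 9 members were lower in this fit as well, against 21.1% of all tested genes, with a median of −1.02. The origin of the trend was not tested.

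**Figure D5:**
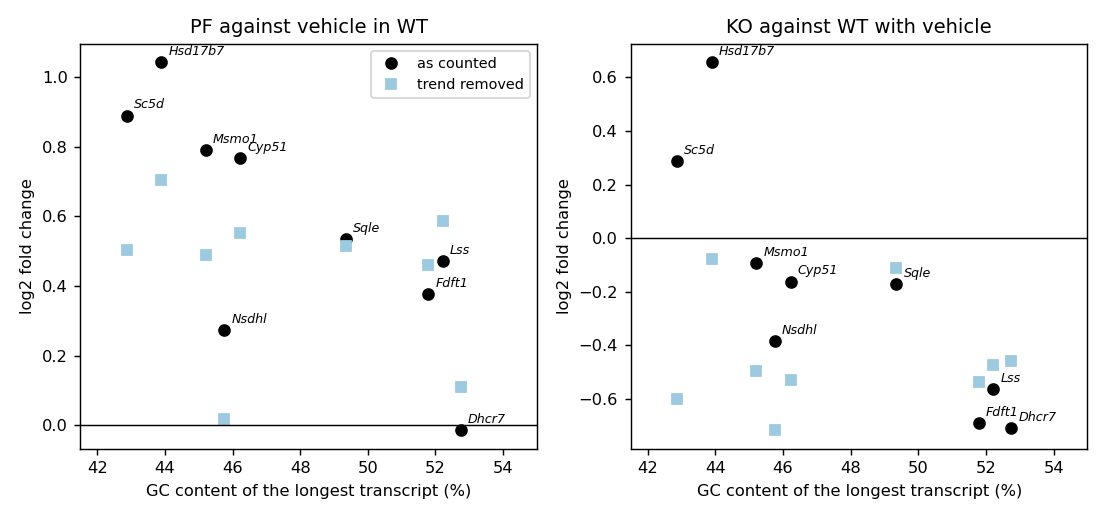
Log2 fold change of each member against the GC content of its longest transcript in percent, for PF against vehicle in WT (left) and AMPKβ1-/- (KO) against WT with vehicle (right). Black circles are the counts as deposited and blue squares the fit with the GC and length trend removed, and the GC-poor Sc5d and Hsd17b7 move most between the fits.

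The members varied together over the 12 libraries. Pearson's r of log2 CPM between pairs of members had a median of 0.81 over the 36 pairs, from −0.13 (Hsd17b7 with Dhcr7) to 0.97 (Cyp51 with Msmo1). With the GC and length trend removed the median was 0.92, from 0.65 (Sqle with Nsdhl) to 1.00 (Fdft1 with Cyp51). Cyp51 followed the mean of the other 8 most closely (r = 0.99) and Hsd17b7 least (r = 0.43, or 0.90 with the trend removed). The libraries share their group, depth and GC trend, so these values describe the 4 groups more than single libraries. Among genes outside the group, Lrp12 (r = 0.979), Nub1 (0.979), Ptafr (0.976), Ipo5 (0.967) and Cipc (0.967) were most like the members' mean, and Nub1 dropped to 0.37 with the trend removed. In that fit the most similar genes were Scd2, Fdps, Tent5c, Padi2 and Mvd, with r from 0.985 to 0.990, and Fdps and Mvd are enzymes of the mevalonate arm that feeds this pathway.

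Some enzymes upstream of the members rose along with them when WT BMDMs received PF. Of the mevalonate arm, Hmgcs1, which makes HMG-CoA (log2 1.04), Idi1 (1.08) and Fdps, which makes the substrate of Fdft1 (0.36), rose with PF in WT BMDMs, with edgeR adjusted p of 0.00688, 0.0133 and 0.0245. Acat2 (0.38), Mvd (0.27), Ggps1 (0.32), Mvk (−0.027) and Pmvk (−0.080) did not pass, and Mvd was called with the GC and length trend taken out (0.51, edgeR adjusted p = 0.000120). Tm7sf2 (−0.024), Lbr (0.37), Ebp (−0.18) and Erg28 (0.19), which serve other late steps, did not pass either. Each of these 12 genes missed the threshold with PF in AMPKβ1-/- BMDMs by edgeR. For Hmgcs1, Idi1 and Fdps, the response was not shown to differ between the genotypes (interaction, edgeR adjusted p = 0.140, 0.252 and 0.0949). With the trend removed, the interaction was called for Hmgcs1 and Fdps (edgeR adjusted p = 0.0150 and 0.00317) but not for Idi1 (0.0735). Between the genotypes with PF, Acat2 (−0.96), Mvk (−0.74), Pmvk (−0.61), Mvd (−1.46), Fdps (−1.41), Tm7sf2 (−0.79), Ebp (−0.51) and Erg28 (−0.66) were lower in AMPKβ1-/- BMDMs, with edgeR adjusted p of at most 0.00186. Hmgcs1 (−0.49, edgeR adjusted p = 0.0511) and Idi1 (0.090, edgeR adjusted p = 0.762), which had the largest rises with PF in WT among these genes, did not pass. Ggps1 (0.87) and Lbr (0.44) were higher, with edgeR adjusted p of 0.000421 and 0.00811. With the trend removed these last values were −0.14 and 0.084 and neither was called, while the 8 lower genes remained so and Hmgcs1 (−0.97) and Idi1 (−0.55) were called lower too.

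Among 7 regulators of SREBP, Insig1, the anchor that holds the SREBP complex in the endoplasmic reticulum and is itself an SREBP target, rose with PF in WT BMDMs. It had 52.4, 63.0 and 71.2 CPM with vehicle and 104, 126 and 140 CPM with PF (log2 0.99, edgeR adjusted p = 0.000454). In AMPKβ1-/- BMDMs it had 65.4, 62.5 and 57.1 CPM and then 57.4, 59.7 and 58.0 CPM. The groups were apart in WT and overlapped in AMPKβ1-/- BMDMs, and the difference of the responses was 1.07 (edgeR adjusted p = 0.0133). Stard4, a sterol carrier and another SREBP2 target, rose in WT (0.81, edgeR adjusted p = 0.0182). Of 5 electron donors and cofactors of these enzymes, edgeR called 0, and 0 had an unadjusted p below 0.05, while Por, the reductase that feeds electrons to Cyp51, was called higher with the trend removed (0.25, edgeR adjusted p = 0.00323). Of 6 genes for the turnover of pathway enzymes 1 rose, Rnf139 (0.53, edgeR adjusted p = 0.0242), whose value was 0.097 (adjusted p = 0.741) with the GC and length trend removed. Of 7 tested genes of cholesterol storage and efflux, Soat1, which esterifies cholesterol, rose (0.51, edgeR adjusted p = 0.00295), and Nr1h3 (−0.50), Nr1h2 (−0.32) and Cyp27a1 (−0.52) fell, with edgeR adjusted p of 0.00626, 0.0327 and 0.00660. Of all 10822 tested genes, 756 were called higher and 969 lower with PF in WT BMDMs. With the trend removed, Soat1 (0.22, adjusted p = 0.0955) and Nr1h2 (−0.067, adjusted p = 0.483) were no longer called. With PF in AMPKβ1-/- BMDMs, edgeR called 0 of these regulators, donors, turnover, storage and efflux genes, and 0 had an unadjusted p below 0.05. The interaction did not pass for Stard4 (edgeR adjusted p = 0.229), Rnf139 (0.173), Soat1 (0.0799), Nr1h3 (0.151), Nr1h2 (0.368) or Cyp27a1 (0.171). Their responses were thus not shown to differ between the genotypes.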

How the data were processed

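RNA sequencing of 12 BMDM libraries gave one table. Per the study's methods, the authors ran MultiQC on the raw reads and Trim Galore for trimming, and Salmon estimated transcript abundance. The deposited values are estimated counts per gene as whole numbers, without normalization. Genome build, versions, the summing of transcripts to genes and the use of strand were not given in the sources used here, and reads shared with pseudogenes or antisense genes were not examined. Groups came from the column names, and the replicate numbers occur there alone.

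Counts were tested in R 4.3.3 with edgeR 4.0.16 (quasi-likelihood, robust), TMM factors, filterByExpr and 1 fit of the 4 group means. The p values were adjusted by Benjamini-Hochberg over 10822 genes and called below 0.05. DESeq2 1.42.0, limma-voom (limma 3.58.1), other scalings, filters and subsets, the DEG threshold of 0.8, a replicate block and an offset for GC content and length (GENCODE M21, splines of 5 degrees of freedom, GC known for 99.6% of tested genes) were alternatives. SE and intervals were derived from the F statistic and are approximate. The fit was tested on simulated counts. Named genes were the members, Prkab1, the called genes of each list in the comparison described and the 5 genes most like the members. Results for some listed genes are not reported here. Members and lists were chosen with earlier results of these data known. Replicate libraries differed by 2.19 to 18.5 times the variance of counting, and none were identical. A gene at 0 could still have 3 counts, which covers counting error only.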

Additional observations from a re-analysis of the deposited data

Results flagged for a closer look

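The response to PF differed between WT and AMPKβ1-/- BMDMs for 3 members by a test of the difference itself. Cyp51 rose more in WT by 0.84 on the log2 scale (edgeR adjusted p = 0.00811), Msmo1 by 0.79 (edgeR adjusted p = 0.0261) and Hsd17b7 by 1.14 (edgeR adjusted p = 0.0261). In all 3 genes each WT PF library was above each WT vehicle library, and in AMPKβ1-/- BMDMs no PF response was called. With the GC and length trend removed the differences were 0.66, 0.55 and 0.92, each called. Leaving out 1 library at a time, Cyp51 was called each time. Msmo1 and Hsd17b7 were each lost in 9 of these fits (edgeR adjusted p up to 0.0991 and 0.0946).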

How the results depend on the processing

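The 7 members higher with PF in WT stayed between 6 and 8 in all alternatives but the DEG threshold (2), and between 6 and 7 with a library left out. With PF in AMPKβ1-/- BMDMs 0 were called throughout. The difference of the responses gave 5 (library size alone), 6 (DESeq2 test), 7 (GC and length offset) and 7 (replicate block with that offset) in place of 3, and 1 to 6 with a library left out. Over all genes, 23, 61, 85 and 75 were called in this direction in place of 19, and 3 to 133 with a library left out. AMPKβ1-/- against WT gave 0 in place of 5 with vehicle and 5 in place of 9 with PF at the DEG threshold. With library size alone, which moved the median of all genes to 0.18 with vehicle and 0.15 with PF, the vehicle calls were 2 higher and 3 lower (1 and 4 before), over all genes 4296 higher and 1600 lower (3216 and 3249 before), and Sqle (0.039), Cyp51 (0.048) and Msmo1 (0.12) changed sign. With PF, Hsd17b7 and Sc5d were then not called. Under the GC and length offset, alone and with the replicate block, sign changed with vehicle for Hsd17b7 (−0.079 and −0.083) and Sc5d (−0.60 and −0.60), and in the PF response of AMPKβ1-/- BMDMs for Msmo1 (−0.060 and −0.060), Nsdhl (−0.032 and −0.038) and Sc5d (−0.072 and −0.071). Members near 0 also changed sign without a call. Dhcr7 in WT was at 0.000117 with DESeq2 size factors, 0.066 with library size, 0.11 with the offset and 0.11 with block and offset, 0.000110 in the contrast alone, and −0.053 to 0.045 in leave-one-out fits. In AMPKβ1-/- BMDMs Sqle was at 0.0017, 0.0087 and 0.0022 with DESeq2 size factors, library size and the DESeq2 test, and Msmo1 at −0.0014 in the contrast alone. There, leave-one-out fits gave Sqle −0.041 to 0.013, Lss −0.0028 to 0.043, Msmo1 −0.079 to 0.081 and Nsdhl −0.043 to 0.092. The cause of these shifts was not tested. Same-numbered libraries showed no clear pairing (r of their deviations −0.17 to 0.32, and 2 to 4 of 6 libraries correlated best with their own number). With 3 libraries per group, this cannot exclude pairing. The replicate block alone changed no count (7, 0, 3, 5 and 9 in the order above). Depth limits Hsd17b7 most, with 62 to 236 counts.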
